A study of Homo sapiens with 8 samples.

Results

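The subject here is the difference between human mesenchymal stromal cells that had been in dimethyl sulfoxide (DMSO) and those that had not, compared once in fresh cells and once in frozen cells. All 8 libraries of the series enter, chosen by their labels alone: 3 with DMSO and 5 without. DMSO is the standard permeating cryoprotectant, a small solvent that crosses membranes and limits ice formation, and it is also known to alter signalling and transcription in cultured cells. Immediate early genes are transcribed within minutes of a stimulus, without new protein synthesis, from promoters that read kinase cascades through factors such as SRF and CREB. Their transcripts are short-lived, and they are known to respond to serum, handling and stress in stromal cells.

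H9 is an embryonic stem cell line, and the stromal cells made from it were used between passages 8 and 12. Fresh cells with DMSO were 1 library (Fresh 1h DMSO). Fresh cells without it were 2 libraries, Fresh 0h and Fresh 1h Media. Frozen cells with DMSO were 2 libraries, Frozen 0h DMSO and Frozen 1h DMSO. Frozen cells without it were 3 libraries of the study's osmolyte solutions, Frozen 1h SGC, Frozen 1h SGI and Frozen 2h SMC, whose abbreviations the labels do not spell out. The hours are the hold at room temperature. Each condition was 1 library, so p-values below reflect how far libraries of unlike solution or hold scatter, which may be technical. Per the series' design text the osmolyte solutions were cooled at 3 °C per minute and DMSO at 1 °C per minute, so among frozen cells solution and cooling rate cannot be told apart. No fresh library held in an osmolyte solution was analysed here, so among frozen cells the contrast sets DMSO against other solutions and not against medium.

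The count totals were 41198716 to 51166666 per library, and 15564 of 23354 genes were tested. Of the stromal markers, NT5E (CD73) was at 152 CPM or more in all 8 libraries (counts scaled to a common library total). ENG (CD105) was at 196 CPM or more in each. NGFR, on the same list, was at 0 in 1 library and reached 0.135 CPM at most. Of 9 blood markers CD3E and HBG1 were at 0 in all 8, while CD34 was at 1.48 to 2.24 CPM. Of 10 neural markers SOX1 and NEUROD1 were at 0 in all 8, while TUBB3, a tubulin also found outside neurons, was at 88.7 to 138.5 CPM. Lists of other cell types were mixed. The epithelial keratins KRT8 and KRT18 were at 696 to 969 CPM and 480 to 609 CPM, while EPCAM was at 2.21 CPM or less. The endothelial receptor TEK was at 32.5 to 51.2 CPM, while PECAM1 was at 1.99 CPM or less. The highest of the pluripotency list were ESRG, at 8.16 to 14.04 CPM, and DNMT3B, at 8.54 to 12.84 CPM. The pluripotency factor POU5F1 was at 2.11 to 5.89 CPM, while LIN28B and PRDM14 were at 0 in all 8.

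Over fresh and frozen cells, DMSO went with a difference at 2527 genes, 16.2% of those tested, of which 1452 (9.33%) were higher and 1075 (6.91%) lower (edgeR quasi-likelihood test with state as a covariate, Benjamini-Hochberg adjusted p under 0.05). Most of these differences were small: 22 genes were at least 2-fold higher and 129 at least 2-fold lower. The number rested on both DMSO-frozen libraries, falling to 25 without Frozen 1h DMSO and 17 without Frozen 0h DMSO. It also fell to 875 without Frozen 1h SGC and 691 without Frozen 1h SGI. Without the single fresh DMSO library it stood at 4648, but that fit compares DMSO among frozen cells only.

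The number of genes called differed widely between the states, in contrasts of unequal size. Fresh cells had 1 library with DMSO and 2 without, and frozen cells 2 and 3. In fresh cells alone 7 genes passed, 0.045% of those tested, with 1 higher (0.00643%) and 6 lower (0.0386%). Without Fresh 0h the number was 105, without Fresh 1h Media 11 and without Frozen 2h SMC 13. At an unadjusted p under 0.05 there were 612 genes (3.93%), 290 higher and 322 lower. That share is under the 0.05 which such a threshold passes on average with no difference present. DESeq2, with adjustment, called 21. Among frozen cells 4661 genes passed, 29.9%, with 2526 (16.2%) higher and 2135 (13.7%) lower, and scaling by library totals turned that split to 1965 higher and 2564 lower. Without Frozen 0h DMSO the frozen number was 2039. Of the 4661, 73.3% had the same sign of difference in fresh cells, against 62.4% of all genes tested. Of the 2527 genes called over both states, 2427 were also called among frozen cells. Among the 2527, 228 met the rule given below for differing only among frozen cells, and 5 passed in each state. A call over both states is thus not a difference shown in each.

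**Figure D1:**
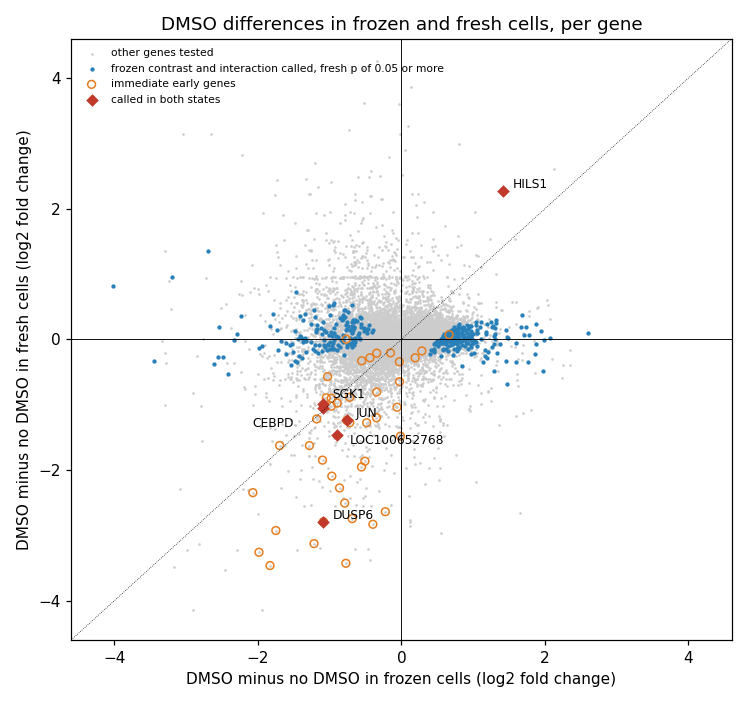
Each point is a gene, with the log2 fold change with DMSO in frozen cells on the x axis and in fresh cells on the y axis; 20 genes lie outside the axes. Red diamonds are the 6 genes called in both states, orange rings the immediate early genes, and blue points the 390 genes that differed among frozen cells only, which lie along the horizontal line because the rule for them asks for no fresh difference.

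Of the tested genes 6 passed in fresh cells and in frozen cells in the same direction. They were JUN, SGK1, CEBPD, DUSP6 and LOC100652768, lower with DMSO, and HILS1, higher with DMSO. No gene passed in opposite directions. JUN, SGK1 and LOC100652768 stayed called in both states in 15 of 15 other fits, HILS1 in 13, CEBPD in 12 and DUSP6 in 10. Those fits changed the processing or left out libraries. All of them kept the single fresh DMSO library, so they do not probe its part in the fresh calls. The number of such genes was 68 without Fresh 0h and 11 without Frozen 2h SMC.

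JUN encodes a core subunit of the AP-1 transcription factor and is an immediate early gene (hg19 chr1:59246463-59249785). It stood at 203 CPM in fresh DMSO cells, against 416 CPM at 0 h and 543 CPM after 1 h in medium (here and below CPM scaled by TMM, the trimmed mean of M-values). Among frozen cells it was 254 and 242 CPM in the 0 h and 1 h DMSO libraries, against 450, 413 and 397 CPM in SGC, SGI and SMC. All 3 DMSO libraries lay below all 5 others. The log2 fold change was -1.24 ± 0.15 (SE) in fresh cells (edgeR adjusted p = 0.000971) and -0.76 ± 0.10 in frozen cells (edgeR adjusted p = 3.14e-05), and the test of the difference between the states did not pass (edgeR adjusted p = 0.15).

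SGK1 encodes the serum- and glucocorticoid-regulated kinase, which acts on ion channels and transporters and whose transcript is known to follow cell volume. It was 55.4 CPM in fresh DMSO cells, against 105 CPM at 0 h and 116 CPM in medium. The frozen DMSO libraries had 66.3 and 64.3 CPM, against 152, 115 and 149 CPM in SGC, SGI and SMC. Again no DMSO library reached a library without DMSO. SGK1 fell by 0.99 on the log2 scale in fresh cells (edgeR adjusted p = 0.0124) and by 1.09 in frozen cells (edgeR adjusted p = 1.12e-06), and over both states by 1.05 (SE 0.09, edgeR adjusted p = 4.52e-05).

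CEBPD encodes C/EBP delta, a transcription factor of acute inflammation and of early fat cell differentiation. Its level was 7.0 CPM in fresh DMSO cells, against 13.8 and 15.4 CPM at 0 h and in medium. It was 7.73 and 10.4 CPM in the frozen DMSO libraries, against 20.7, 18.4 and 19.0 CPM in SGC, SGI and SMC. The drops were nearly equal on the log2 scale, -1.06 ± 0.18 in fresh cells and -1.09 ± 0.13 in frozen cells (edgeR adjusted p = 0.028 and 5.63e-06).

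DUSP6 encodes a phosphatase that switches off the kinase ERK and whose own transcription follows ERK activity. It had 3.68 CPM in fresh DMSO cells, against 20.8 CPM at 0 h and 30.3 CPM in medium. The frozen DMSO libraries had 8.28 and 7.69 CPM, against 21.5, 15.4 and 14 CPM in SGC, SGI and SMC. It was the one gene of the 6 that passed the test of a difference between the states: -2.79 in fresh cells and -1.09 in frozen cells on the log2 scale, an interaction of 1.71 (edgeR adjusted p = 0.0489). Its difference over both states, -1.60 ± 0.41, missed the threshold (edgeR adjusted p = 0.0552).

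LOC100652768 is an entry of the table with no role given here, and its span overlaps SIDT2 and TAGLN, so reads may be shared. It had 4.05 CPM in fresh DMSO cells, against 9.49 and 13.0 CPM without DMSO. In frozen cells it had 6.55 and 5.38 CPM with DMSO, against 12.0, 10.4 and 10.9 CPM in SGC, SGI and SMC. TAGLN itself, the smooth muscle protein transgelin, had a fresh log2 difference of -0.17 that did not pass (edgeR adjusted p = 0.994), against -1.47 for LOC100652768.

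HILS1, named for a linker histone of spermatids, was the one gene higher in both states. It was scarce, at 3.05 CPM in fresh DMSO cells against 0.716 and 0.534 CPM without DMSO, and at 1.66 and 2.36 CPM in the frozen DMSO libraries against 0.625, 0.740 and 0.881 CPM in SGC, SGI and SMC. Its span (hg19 chr17:48248789-48249837) lies inside that of SGCA, which encodes alpha-sarcoglycan of the muscle dystrophin complex, so its reads cannot be assigned with certainty. SGCA, added after its values were seen, had 5.09 CPM in fresh DMSO cells against 1.07 and 0.582 CPM without DMSO. In frozen cells SGCA had 2.21 and 6.91 CPM with DMSO, against 0.938, 1.04 and 1.13 CPM in SGC, SGI and SMC. Over both states SGCA was 2.30 higher on the log2 scale (SE 0.33, edgeR adjusted p = 0.00765). HILS1, and SLC32A1, EGR2 and ARC described below, lie under the 5 CPM set for genes named by rule.

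**Figure D2:**
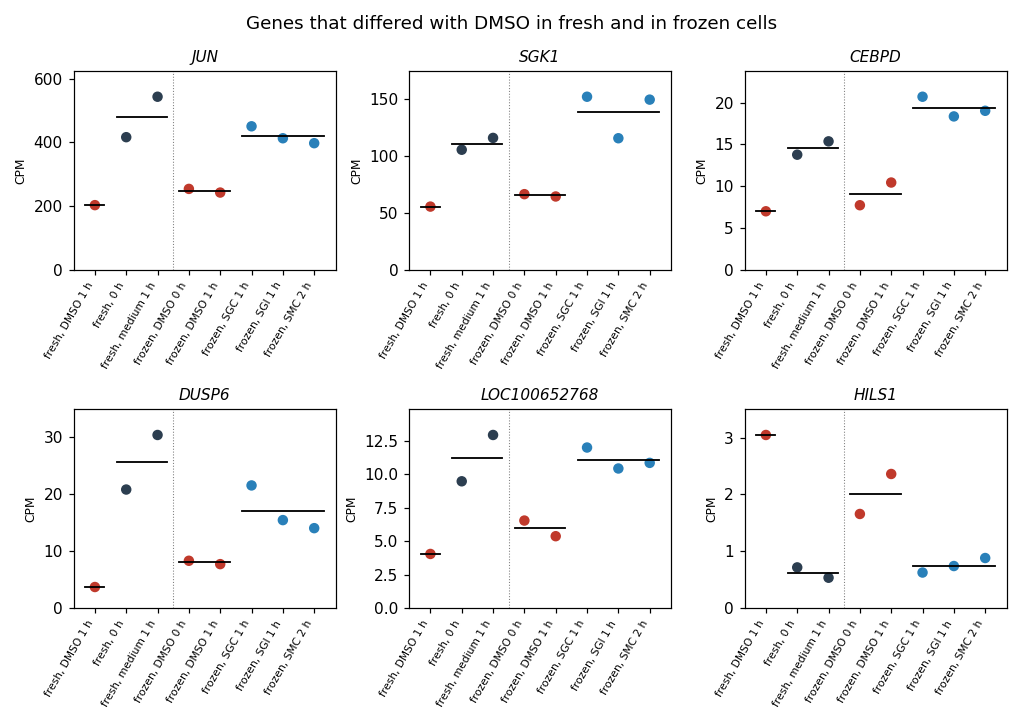
CPM of the 6 genes called in both states, by library, on linear axes from 0. Points are libraries, black bars group means, and the dotted line parts fresh from frozen cells; the DMSO libraries are red, and in each state they lie on one side of the others.

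The one gene that passed in fresh cells only was SLC32A1, which encodes the vesicular transporter of GABA. It had 0 counts in the fresh DMSO library, against 40 at 0 h and 52 in medium. In the frozen cells it had 38 and 44 counts with DMSO, against 54, 22 and 50 in SGC, SGI and SMC. The call rests on 1 library at 0 for a scarce gene.

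The JUN and DUSP6 drops were shared by much of the immediate early list. Of its 42 members, all tested, 17 were lower with DMSO over both states and 0 higher, against 6.91% of all genes lower. The number was 5 without Frozen 1h DMSO, 3 without Frozen 0h DMSO, 10 without Frozen 1h SGC and 11 without Frozen 1h SGI. The median log2 difference of the members was -1.26 in fresh cells and -0.74 in frozen cells, against -0.01 and -0.04 over all genes tested. In fresh cells 2 members passed, and in frozen cells 12, all of them lower, against 0.0386% and 13.7% of all genes lower. In 28 of the 42 the DMSO libraries lay below the others in both states without overlap, against 13.6% of all genes.

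The promoters of 4 members that fell over both states are shown for the elements such promoters are known for. RefSeq promoter sequences (GRCh38.p14, 250 bases before to 50 after the start, gene strand) were found for 31 of the 42 members. The full cyclic AMP response element TGACGTCA, bound by CREB and ATF proteins, was in 3 of the 31 (DUSP1, JUND and ZFP36L1), or 9.68%, against 1.85% of all 35116 promoters. The CArG box bound by SRF was in 3 (EGR1, EGR2 and SRF itself), also 9.68%, against 1.29% of all promoters. The AP-1 element TGANTCA was in 0 of the 31 and in 7.71% of all promoters. Both strands were read, and the first element holds no AP-1 element. The list shares count genes, where a match in any promoter of the gene is enough. The shares of all count single promoters, so the units differ. A match describes letters and not binding, and the 4 shown are the genes with a motif that also passed over both states, other than ZFP36L1. Capitals mark the response element in DUSP1 and JUND and the CArG boxes in EGR2 and SRF.
DUSP1: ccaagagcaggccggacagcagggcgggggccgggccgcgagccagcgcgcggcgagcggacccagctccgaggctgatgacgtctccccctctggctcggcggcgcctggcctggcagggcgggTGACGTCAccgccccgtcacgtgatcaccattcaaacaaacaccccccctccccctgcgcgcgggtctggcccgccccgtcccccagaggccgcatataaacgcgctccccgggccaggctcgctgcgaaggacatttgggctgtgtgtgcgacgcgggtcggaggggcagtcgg
JUND: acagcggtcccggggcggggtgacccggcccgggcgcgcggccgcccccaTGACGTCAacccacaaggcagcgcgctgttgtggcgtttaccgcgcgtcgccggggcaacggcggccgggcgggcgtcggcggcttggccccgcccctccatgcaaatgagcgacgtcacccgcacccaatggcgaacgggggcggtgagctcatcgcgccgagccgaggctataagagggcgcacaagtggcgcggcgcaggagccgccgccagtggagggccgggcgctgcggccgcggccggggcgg
EGR2: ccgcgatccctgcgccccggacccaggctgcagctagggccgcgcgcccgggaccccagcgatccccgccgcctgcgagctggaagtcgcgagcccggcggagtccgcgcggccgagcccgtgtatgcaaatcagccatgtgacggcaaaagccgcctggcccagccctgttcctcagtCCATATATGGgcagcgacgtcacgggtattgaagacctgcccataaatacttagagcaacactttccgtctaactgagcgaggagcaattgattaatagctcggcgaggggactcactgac
SRF: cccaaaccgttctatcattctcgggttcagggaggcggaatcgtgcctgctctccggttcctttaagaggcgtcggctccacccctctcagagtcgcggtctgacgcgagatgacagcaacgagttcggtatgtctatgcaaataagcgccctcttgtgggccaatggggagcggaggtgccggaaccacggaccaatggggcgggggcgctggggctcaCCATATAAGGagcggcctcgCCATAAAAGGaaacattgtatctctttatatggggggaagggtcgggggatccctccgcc

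DUSP1, which encodes a phosphatase of the stress kinases, had 57.3 CPM in fresh DMSO cells, against 201 CPM at 0 h and 382 CPM in medium. The frozen DMSO libraries had 69.3 and 58.7 CPM, against 393, 271 and 142 CPM in SGC, SGI and SMC. DUSP1, JUND, EGR2, SRF, ATF3, FOS, MYC, EGR3, PTGS2 and MCL1 were picked for description after their values were seen. DUSP1 fell by 2.17 on the log2 scale over both states (SE 0.43, edgeR adjusted p = 0.0315), with no overlap in either state. JUND, an AP-1 subunit, had 46.1 CPM in fresh DMSO cells against 77.5 and 110 CPM without DMSO, and 49.9 and 67.1 CPM in frozen DMSO cells against 128, 117 and 99.4 CPM in SGC, SGI and SMC. JUND fell by 0.99 (SE 0.14, edgeR adjusted p = 0.00613).

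EGR2, a zinc finger factor, was near 1 CPM: 0.50 CPM in fresh DMSO cells against 1.12 and 1.99 CPM, and 0.316 and 0.350 CPM in frozen DMSO cells against 1.03, 1.00 and 1.22 CPM in SGC, SGI and SMC. It fell by 1.67 over both states on the log2 scale (edgeR adjusted p = 0.0084). SRF, which binds the CArG box, differed least of the 4, at 73.4 CPM in fresh DMSO cells against 80.9 and 89.0 CPM, and at 76.0 and 81.7 CPM in frozen DMSO cells against 95.2, 96.5 and 109 CPM in SGC, SGI and SMC. SRF fell by 0.30 on the log2 scale (edgeR adjusted p = 0.021).

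Other members with large differences were too variable to pass in the fits of all 8 libraries, which mix hold times. ATF3, a stress-induced CREB family factor, had 7.19 CPM in fresh DMSO cells, against 29.4 CPM at 0 h and 108 CPM in medium. In frozen cells ATF3 had 6.19 and 6.34 CPM with DMSO, against 40.4, 20.5 and 13.4 CPM in SGC, SGI and SMC. The 3 DMSO libraries were close to each other while the 5 others ran over a wide range, and the difference over both states, -2.42 ± 0.71, did not pass (edgeR adjusted p = 0.0792). FOS, the AP-1 partner of JUN, had 72.2 CPM in fresh DMSO cells against 528 and 733 CPM. In frozen cells FOS had 154 and 77.0 CPM with DMSO, against 432, 250 and 123 CPM in SGC, SGI and SMC, so the frozen groups overlapped (edgeR adjusted p = 0.139 over both states).

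CTGF and CYR61, secreted matricellular proteins whose genes answer to YAP and SRF, were abundant and separated cleanly. CTGF had 578 CPM in fresh DMSO cells, against 1088 and 1602 CPM without DMSO. In frozen cells it had 832 and 789 CPM with DMSO, against 2023, 1449.7 and 2038 CPM in SGC, SGI and SMC, a fall over both states of 1.19 on the log2 scale (SE 0.14, edgeR adjusted p = 0.00233). CYR61 fell by 0.95 (SE 0.12, edgeR adjusted p = 0.00161). MYC, a growth-promoting transcription factor, fell by 0.78 (SE 0.13, edgeR adjusted p = 0.00923).

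A few members differed by value in fresh cells and less so in frozen cells. EGR3, a zinc finger factor, had 5.87 CPM in fresh DMSO cells against 24.0 and 49.1 CPM, while the frozen libraries had 3.67 and 2.40 CPM with DMSO against 3.66, 3.22 and 3.82 CPM. PTGS2, the inducible cyclooxygenase, had 65.9 CPM in fresh DMSO cells against 267 and 671 CPM. In frozen cells PTGS2 had 80.8 and 66.7 CPM with DMSO, against 126, 82.4 and 83.4 CPM. With all 8 libraries the interaction test did not pass for either. It did for MCL1, an anti-apoptotic protein, at 319 CPM in fresh DMSO cells against 548 and 761 CPM, and at 398 and 330 CPM in frozen DMSO cells against 424, 345 and 370 CPM (edgeR adjusted p = 0.0491). ARC, GEM and BTG2 were the members with a positive difference over both states, 0.44, 0.12 and 0.03 on the log2 scale, and none of them passed.

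Hold times differed between the libraries compared. The mean over the 42 members of log2(CPM + 0.5), centred per gene, was -0.62 in fresh DMSO cells, against 0.38 at 0 h and 1.097 after 1 h in medium. The frozen DMSO libraries were at -0.53 (0 h) and -0.61 (1 h), against 0.33 in SGC (1 h), 0.01 in SGI (1 h) and -0.05 in SMC (2 h). Set against each fresh library alone, the fresh DMSO library was lower at 40 of 42 members than Fresh 0h, with a median of -0.76, and at 41 of 42 than Fresh 1h Media, with a median of -1.54. Over all genes tested it was lower at 50.04% and 52.46%. The choice of fresh library thus changed the size, and not the direction, of the list's median.

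**Figure D3:**
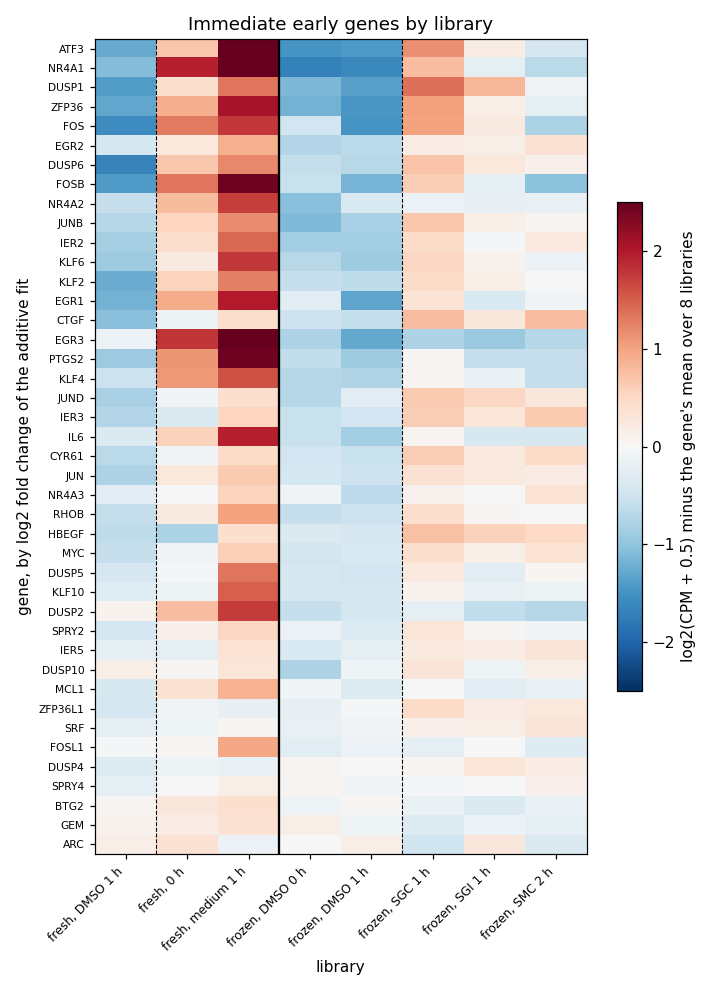
Each row is 1 of 42 immediate early genes and each column a library; the colour is log2(CPM + 0.5) minus the gene's mean over the 8 libraries. The 3 DMSO columns are mostly blue, and the fresh library held 1 h in medium is the reddest, with a mean of 1.097.

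With only the 5 libraries held for 1 h, 594 genes passed in fresh cells and 342 in both states in the same direction, 246 higher and 96 lower, among them 29 immediate early genes, all lower, against 0.614% of all genes lower. Another 33 genes passed in opposite directions. That fit has 1 residual degree of freedom, the spread between SGC and SGI, so its p-values rest on how alike those are. Leaving out Fresh 0h alone gave 68 genes in both states, 16 of them immediate early genes and all 16 lower, against 0.22% of all genes lower, and 5 genes in opposite directions.

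Judged by values with no test, 272 genes (1.75%) had no overlap and at least a 1.5-fold difference of means in each state, 17 higher (0.109%) and 255 lower (1.64%). Among the 10836 genes with a mean of 5 CPM or more there were 43 lower (0.397%) and 2 higher (0.0185%), and 16 of these 45 were on the immediate early list. HES1, a transcriptional repressor and Notch target, had the largest of these differences, at 3.87 CPM in fresh DMSO cells against 10.2 and 79.7 CPM. In frozen cells HES1 had 4.61 and 5.11 CPM with DMSO, against 38.1, 21.5 and 20.1 CPM in SGC, SGI and SMC. The 3 DMSO libraries were alike and the others were not, and HES1 did not pass (edgeR adjusted p = 0.0819 over both states). PLK3, a stress-responsive kinase, was less changed but steadier, at 26.9 CPM in fresh DMSO cells against 41.9 and 43.9 CPM, and at 34.7 and 33.0 CPM in frozen DMSO cells against 62.7, 59.4 and 48.9 CPM. PLK3 fell by 0.72 over both states (SE 0.09, edgeR adjusted p = 0.000693).

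CCL2, a monocyte-attracting chemokine, likewise fell by 0.58 over both states (edgeR adjusted p = 0.00639). It had 120 CPM in fresh DMSO cells, against 184 and 204 CPM, and 149 and 141 CPM in frozen DMSO cells, against 243, 203 and 176 CPM. In the chemokine and NF-kappa-B feedback list, 3 of 20 members were lower over both states and 0 higher, against 6.91% and 9.33% of all genes. Its median difference was -0.62 in fresh cells and -0.25 in frozen cells, against -0.01 and -0.04 over all genes.

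The other set was larger. Genes counted as differing only among frozen cells passed the frozen test and the interaction test and had an unadjusted fresh p of 0.05 or more. There were 390, with 235 higher and 155 lower with DMSO. The number fell to 186 without Frozen 1h DMSO and 137 without Frozen 0h DMSO. Another 4265 genes passed in frozen cells without meeting those conditions and are left unresolved, since a missed fresh test on 1 DMSO library does not show equal levels. The interaction itself passed for 437 genes, 2.81% of those tested, and for 209 and 151 without Frozen 1h DMSO and Frozen 0h DMSO.

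The fresh libraries give these 390 genes a point of reference. In 387 of them, 99.2%, every osmolyte-frozen library lay outside the range of the 3 fresh libraries on the same side, against 49.6% of all genes tested. Both DMSO-frozen libraries lay outside it on the same side in 228, 58.5%, against 31.4% of all genes. In 162 genes, 41.5%, the osmolyte-frozen group met this and the DMSO-frozen group did not, against 30.7% of all genes. In 3 genes, 0.769%, it was the reverse, against 12.4% of all genes. These positions follow in part from the rule, which asks for a frozen difference and no fresh one, and are given as a description. In bulk RNA, fewer cells of a kind and less RNA per cell cannot be told apart.

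Among the genes higher with DMSO were TRH, ENPP2, PLEKHA6, ANGPT1, CHI3L1, MYPN, THSD7A, IL1R1, ABLIM3, EREG, CLDN11 and LOC152742, the 12 with the largest differences. TRH, the thyrotropin-releasing hormone, had 57.1 CPM in fresh DMSO cells against 45.8 and 59.2 CPM. In frozen cells TRH had 56.5 and 58.9 CPM with DMSO, against 15.9, 13.1 and 16.0 CPM in SGC, SGI and SMC. The frozen DMSO libraries were thus at the fresh level, and the frozen difference for TRH was 1.95 ± 0.11 on the log2 scale (edgeR adjusted p = 2.23e-09).

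PLEKHA6, a cell junction protein, took a middle position. It had 48.7 CPM in fresh DMSO cells against 47.6 and 50.3 CPM, and 24.1 and 25.5 CPM in frozen DMSO cells against 5.98, 5.87 and 6.95 CPM in SGC, SGI and SMC. Both frozen groups lay below all 3 fresh libraries. CLDN11, a tight junction claudin, had 82.4 CPM in fresh DMSO cells against 80.7 and 80.7 CPM, and 68.1 and 71.2 CPM in frozen DMSO cells against 25.0, 24.0 and 26.5 CPM. IL1R1, the signalling receptor of interleukin 1, had 180 CPM in fresh DMSO cells against 222 and 153 CPM, and 175 and 179 CPM in frozen DMSO cells against 57.3, 57.9 and 60.9 CPM. ENPP2, which encodes autotaxin, had the largest frozen difference of the 12, at 2.08 ± 0.17 (edgeR adjusted p = 1.64e-07). Its frozen levels were 11.9 and 11.7 CPM with DMSO, against 3.26, 2.26 and 2.89 CPM.

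The 12 with the largest drops were ELN, NUPR1, LINC00312, CHAC1, KRT17, INHBB, ADM2, ITIH3, CCND2, FLJ35282, PRR15 and BMP4. ELN, the elastic fibre protein elastin, had 0.910 CPM in fresh DMSO cells against 1.03 and 1.26 CPM. In frozen cells ELN had 3.12 and 3.93 CPM with DMSO, against 41.6, 31.1 and 43.0 CPM in SGC, SGI and SMC. Both frozen groups were above the fresh libraries, the osmolyte group by far, and ELN was 11-fold lower with DMSO among frozen cells (log2 -3.45 ± 0.16, edgeR adjusted p = 3.24e-10).

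ADM2, a peptide of the calcitonin family, had 3.27 CPM in fresh DMSO cells against 3.31 and 3.30 CPM. In frozen cells ADM2 had 3.35 and 3.54 CPM with DMSO, against 18.8, 18.4 and 14.7 CPM in SGC, SGI and SMC. Every DMSO library was at the level of the fresh cells. NUPR1, a stress-induced nuclear protein, had 1.30 and 1.62 CPM in frozen DMSO cells against 9.60, 8.22 and 8.81 CPM, and CHAC1, which degrades glutathione, had 2.13 and 2.49 CPM against 17.1, 14.8 and 8.37 CPM. Of signalling genes, INHBB, the activin beta B chain, had 1.89 and 2.01 CPM in frozen DMSO cells against 10.4, 10.3 and 10.7 CPM. BMP4, a bone morphogenetic protein, had 3.83 and 3.85 CPM against 13.5, 12.1 and 15.3 CPM.

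ADM2, NUPR1 and CHAC1 stood among other genes of the amino acid response, the ATF4 programme that raises amino acid synthesis and uptake. Of 24 list members, 17 were lower and 1 higher with DMSO among frozen cells, against 13.7% and 16.2% of all genes. The median log2 difference was -0.54, against -0.04 over all genes. In fresh cells 0 passed, where 0.045% of all genes did, and the median was -0.02. ATF4 itself had 193 CPM in fresh DMSO cells against 211 and 241 CPM, and 201 and 199 CPM in frozen DMSO cells against 308, 300 and 300 CPM in SGC, SGI and SMC. ATF4 fell by 0.60 on the log2 scale among frozen cells (edgeR adjusted p = 4.32e-05).

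The muscle and contractile list was split in the same way. Of 16 members 11 were lower and 1 higher among frozen cells (median -0.58), 0 passed in fresh cells (median 0.03), and 6 passed the interaction test. Of all genes 13.7% were lower and 16.2% higher among frozen cells, and 2.81% passed the interaction test. ACTA2, smooth muscle actin, had 43.9 CPM in fresh DMSO cells against 43.2 and 42.5 CPM. In frozen cells ACTA2 had 59.2 and 59.8 CPM with DMSO, against 172, 147 and 150 CPM in SGC, SGI and SMC, a fall of 1.40 on the log2 scale (edgeR adjusted p = 3.08e-09). CNN1, the contractile protein calponin, had 48.5 and 53.2 CPM in frozen DMSO cells against 115, 109 and 103 CPM.

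Of the BMP and ID list, 7 of 15 members were lower and 2 higher among frozen cells, with a median of -0.69, against 13.7% lower and 16.2% higher over all genes. The BMP antagonist GREM1 was one of those higher, at 1012 and 989 CPM in frozen DMSO cells against 674, 545 and 717 CPM. NOG, also an antagonist, was lower.

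The oxidant response list moved the other way. NRF2 is the factor that drives antioxidant genes, and of 25 list members 14 were higher and 2 lower with DMSO among frozen cells (median 0.37), against 16.2% and 13.7% of all genes. In fresh cells 0 passed (median -0.02), where 0.045% of all genes did. NQO1, a quinone reductase, had 262 CPM in fresh DMSO cells against 251 and 275 CPM. In frozen cells NQO1 had 200 and 193 CPM with DMSO, against 97.3, 98.6 and 77.5 CPM in SGC, SGI and SMC. It was 1.11 higher on the log2 scale (edgeR adjusted p = 1.9e-07).

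Of 23 stromal markers tested, 12 were higher and 3 lower with DMSO among frozen cells (median 0.30), against 16.2% and 13.7% of all genes, and 0 passed in fresh cells. CD44, the hyaluronan receptor, had 583 CPM in fresh DMSO cells against 545 and 538 CPM, and 495 and 464 CPM in frozen DMSO cells against 254, 273 and 278 CPM in SGC, SGI and SMC. ANPEP and PDGFRA, surface markers of stromal cells, were higher by 0.98 and 0.84 on the log2 scale. HIF1A, the oxygen-regulated factor, had 833 CPM in fresh DMSO cells against 786 and 717 CPM, and 765 and 734 CPM in frozen DMSO cells against 357, 371 and 352 CPM. In its list of hypoxia and glycolysis genes 11 of 26 were higher and 3 lower among frozen cells, and of the osmotic stress and osmolyte transport list 9 of 20 were higher and 2 lower, against the same shares of all genes, 16.2% and 13.7%. SLC6A6, the taurine transporter of that list, had 378 and 403 CPM in frozen DMSO cells against 200, 197 and 227 CPM.

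**Figure D4:**
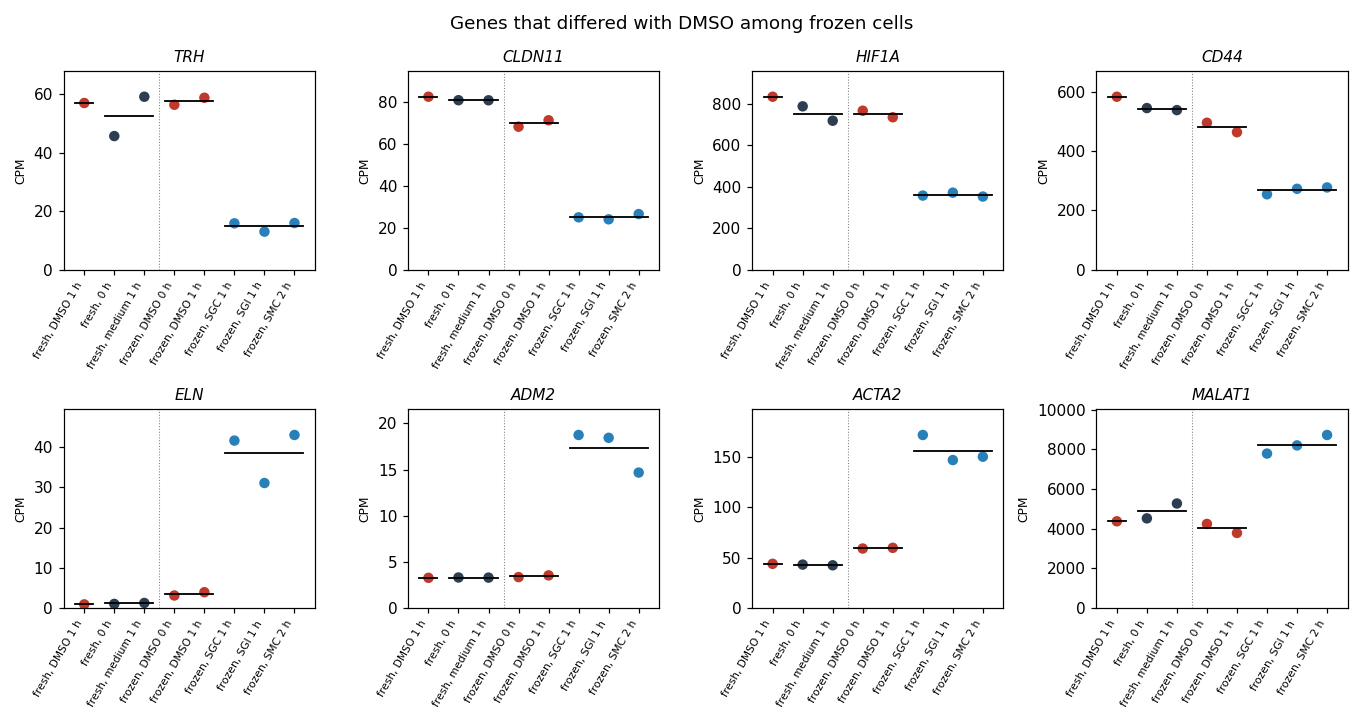
CPM by library, on linear axes from 0, of 8 genes that differed with DMSO among frozen cells only; points are libraries, bars group means, and the DMSO libraries are red. The upper 4 were higher and the lower 4 lower with DMSO among frozen cells, with no overlap between the frozen groups.

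Of 7 nuclear-retained RNAs tested 3 were lower and 0 higher with DMSO among frozen cells, against 13.7% and 16.2% of all genes. MALAT1, a nuclear long RNA, had 4374 CPM in fresh DMSO cells against 4522 and 5272 CPM, and 4241 and 3786 CPM in frozen DMSO cells against 7789, 8200.3 and 8726 CPM in SGC, SGI and SMC. It was 2.05-fold lower with DMSO among frozen cells (edgeR adjusted p = 4.23e-07). Of the 73 ribosomal protein genes tested, 39 were lower with DMSO among frozen cells and 26 over both states, against 13.7% and 6.91% of all genes, and 0 were higher in either. The ribosomal median was -0.27 in frozen cells and -0.12 in fresh cells, and 54 of 73 lay lower without overlap in both states, against 13.6% of all genes. Their part in the other differences was not tested.

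Genes of DNA replication and mitosis showed small differences of one sign. Of 40 members 12 were higher with DMSO over both states and 18 among frozen cells, against 9.33% and 16.2% of all genes. None of the 40 was lower in either, with medians of 0.10 in fresh cells and 0.26 in frozen cells. TOP2A, the mitotic topoisomerase, had 216 CPM in fresh DMSO cells against 182 and 171 CPM, and 214 and 181 CPM in frozen DMSO cells against 128, 150 and 133 CPM in SGC, SGI and SMC. It was 0.44 higher over both states (SE 0.09, edgeR adjusted p = 0.00923). Genes for histone and DNA modifying enzymes, which DMSO has been reported to affect in other cells, had 5 of 24 higher and 0 lower over both states, against 9.33% and 6.91% of all genes, and 0 called in fresh cells.

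**Figure D5:**
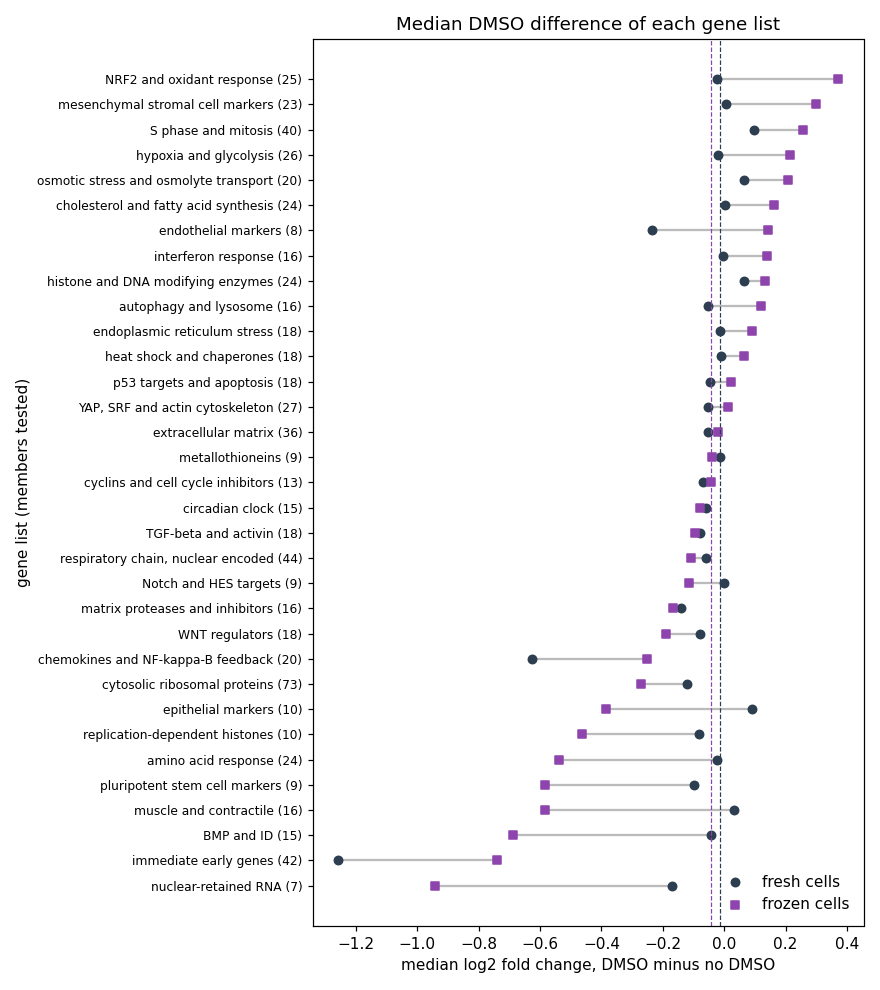
Median log2 fold change with DMSO of each list with 5 or more tested members, in fresh cells (circles) and frozen cells (squares); dashed lines mark the medians of all genes, -0.01 in fresh cells and -0.04 in frozen cells. The immediate early list is the one furthest to the left in fresh cells, at -1.26.

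Some lists had few calls or small medians. With all 8 libraries none of the 4 glucose-sensing arrestins passed over both states, in fresh cells or in frozen cells. Of the heat shock list 6 of 18 were higher and 2 lower among frozen cells, with a median of 0.07, and of the endoplasmic reticulum stress list 4 of 18 were higher and 3 lower, against 16.2% and 13.7% of all genes. Of the metallothioneins 2 of 9 were higher and 0 lower over both states, against 9.33% and 6.91% of all genes. In fresh cells, members passed in 2 of the 36 lists, the immediate early genes and, through SGK1, the osmotic list.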

How the data were processed

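RNA sequencing of 8 libraries was used. Per the submitters' processing notes the tools were CASAVA 1.9, TopHat 12.0.6 and HTSeq, on hg19; the sources used here do not give the annotation or strand setting. Counts per gene were used as the authors deposited them; every count is even, with 0 odd values, and no source says why, so each fragment may be entered as a pair. The deposited RPKM values were not used. The table held 23398 entries; 49 identifiers were listed more than once, 41 with identical counts kept once and 8 kept apart, leaving 23354 genes. Groups came from the titles.

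Tests across genes ran in edgeR 4.0.16 under R 4.3.3 (filterByExpr by fresh or frozen state, TMM scaling, robust quasi-likelihood fits, Benjamini-Hochberg adjustment at 0.05), with DESeq2 1.42.0 as an alternative. The additive fit of state and DMSO had 5 residual degrees of freedom and a biological coefficient of variation of 0.110; the fit of 4 groups, which gave the fresh, frozen and interaction contrasts, had 4 and 0.0926. The lone fresh DMSO library adds no spread of its own. A gene differed in both states if both contrasts passed in 1 direction. The tests were tried on simulated data with independent libraries of 1 common spread and no hold or solution effect. That trial cannot show the error rate in these data, where each library is a different condition. The genes and 36 lists were chosen with earlier results of these data known. Genes named by rule have 5 CPM or more on the higher side. They are the 12 largest rises and 12 largest falls among genes called in both states. The same numbers were taken among frozen-only genes whose frozen groups do not overlap, and up to 4 members of a list by smallest p. Other named genes were chosen after their values were seen, and of these HILS1, SLC32A1, EGR2 and ARC lie under 5 CPM.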

Additional observations from a re-analysis of the deposited data

Results flagged for a closer look

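The genes below are a selection of the 437 that differ between the states by a test of the difference itself. That test is the interaction of DMSO and freezing (edgeR quasi-likelihood test, adjusted p under 0.05). Genes described as differing only among frozen cells had to pass it, so their place here follows from the rule. Each value is the log2 difference with DMSO in frozen cells minus that in fresh cells. Above 0, a higher DMSO difference in frozen cells, stood EREG 2.15, CHI3L1 2.09, ENPP2 2.06, PLEKHA6 1.99, TRH 1.82, IL1R1 1.65, ANGPT1 1.65, LOC152742 1.64, THSD7A 1.47 and ABLIM3 1.47. Smaller positive values were CA12 1.45, CLDN11 1.44, MYPN 1.30, NQO1 1.11, SOD2 1.09, TGFBI 1.08, ANPEP 1.00, COL6A3 1.00, LRRC8C 0.94 and HIF1A 0.91. The smallest positive values were SLC6A6 0.81, PDGFRA 0.78, CD44 0.73, FLNC 0.66, TXNRD1 0.66, MICAL2 0.64, DNMT1 0.62, ALCAM 0.59, RRM1 0.58 and LRRC8D 0.57. Below 0, a lower DMSO difference in frozen cells, stood ELN -3.13, CHAC1 -2.73, CCND2 -2.59, ITIH3 -2.38, ADM2 -2.31, LINC00312 -2.29, NUPR1 -2.24, KRT17 -2.21, BMP4 -2.02 and INHBB -1.89. Smaller negative values were FLJ35282 -1.85, PRR15 -1.85, ANKRD1 -1.56, ASPN -1.54, ACTG2 -1.46, ACTA2 -1.43, LFNG -1.37, CNN1 -1.18, KRT7 -1.16 and CDKN2B -1.07. Negative values nearest to 0 were MIAT -0.95, BBC3 -0.90, MALAT1 -0.87, HIST1H1C -0.86 and CDKN2A -0.74. For 3 genes the value is positive because the drop was larger in fresh cells: DUSP6 1.71, MCL1 0.98 and SLC32A1 8.42, the last against a library at 0 counts, so that its size depends on the prior count and is no bound.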

How the results depend on the processing

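No paired analysis was possible because the labels give no replicate numbers. Adding hold time as a covariate gave 1332 genes over both states, 174 for the interaction, 145 among frozen cells only and 11 immediate early genes lower. With the 1 h libraries only, on 1 residual degree of freedom, there were 444 over both states, 594 in fresh cells, 1247 for the interaction, 342 in both states and 851 among frozen cells only. With no filter on low counts there were 15 in fresh cells, 737 for the interaction and 660 among frozen cells only. DESeq2 gave 21 in fresh cells, 660 for the interaction, 13 in both states and 615 among frozen cells only. Without robust estimation there were 25 in fresh cells, 17 in both states and 28 immediate early genes lower. The rule on values gave 272 in both states, and dropping the interaction test 4384 among frozen cells only. Apart from the dropped interaction test, which loosens the rule itself, the cause of these shifts was not tested. The 1 h fit changed the hold times and the number of libraries together. Leaving out 1 library at a time gave 17 to 4648 genes in the additive fit of state and DMSO. The 4648 came without Fresh 1h DMSO, where that fit compares DMSO among frozen cells only. The ranges were 5 to 105 in fresh cells, 2039 to 5156 in frozen cells and 151 to 632 for the interaction. They were 4 to 68 in both states, 137 to 566 among frozen cells only and 3 to 23 immediate early genes lower. Scaling by library totals moved the share higher over both states to 50.2%, against 57.5%, and among frozen cells to 43.4%, against 54.2%. For single named genes, 2187 recomputed values kept their direction and side of the threshold, 386 fell below it, 80 passed it and 0 reversed. The count for immediate early genes was added after the data were seen. With 1 fresh DMSO library, a missed fresh call says little about equal levels.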

Other observations

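Among frozen cells 16.2% of all genes were higher and 13.7% lower with DMSO. Against those shares, of 24 genes of cholesterol and fatty acid synthesis 8 were higher and 2 lower, with 0 called in fresh cells. Of 18 WNT regulators 1 was higher and 6 lower. DKK1, a secreted WNT inhibitor, had 10.3 and 10.1 CPM in frozen DMSO cells against 20.8, 18.2 and 16.3 CPM. Of 36 extracellular matrix genes 7 were higher and 10 lower: COL6A3, a collagen VI chain, had 4242 and 4593.5 CPM in frozen DMSO cells against 2159.5, 2281 and 2238 CPM, opposite in sign to ELN.

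Of 18 p53 and apoptosis genes 1 was higher and 5 lower among frozen cells, against 16.2% and 13.7% of all genes. GDF15, a stress cytokine, had 8.01 and 10.8 CPM in frozen DMSO cells against 19.3, 17.5 and 18.8 CPM in SGC, SGI and SMC. The cell cycle inhibitor CDKN2B had 37.4 and 34.1 CPM with DMSO against 84.9, 68.9 and 97.5 CPM. PER1, a clock gene that is also induced early by stimuli, had 9.05 CPM in fresh DMSO cells against 22.4 CPM at 0 h and 47.1 CPM in medium, and did not pass (edgeR adjusted p = 0.994 in fresh cells). TXNIP, which restrains glucose uptake, had 109 CPM in fresh DMSO cells, against 105 CPM at 0 h and 44.8 CPM in medium, so the low value was that of the library held in medium.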
